A study of Mus musculus with 16 samples.

Results

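The elastic fibre genes described here are 10 genes, taken by symbol from the gene count table: elastin (Eln), the fibrillins Fbn1 and Fbn2, the microfibril-associated genes Mfap4 and Mfap5, the fibulins Fbln1, Fbln2, Fbln5 and Efemp2, and Emilin1. They are 10 of 52997 gene symbols in the table. All 10 passed the filter on low counts, which kept 13949 genes. RNA was taken from sorted mSC (mesenchymal stromal cells, which form the connective tissue of muscle) of C57BL/6 mouse hindlimb skeletal muscle at an age of 8 weeks. The mice were injected intraperitoneally 4 h or 8 h earlier, either with CGRP (calcitonin gene-related peptide, a neuropeptide) or with PBS, the saline control. Each of the 4 groups (PBS 4 h, CGRP 4 h, PBS 8 h and CGRP 8 h) has 4 libraries, which the submitters call biological replicates, and each library was made from 1000 double-sorted cells. Polyadenylated RNA was primed with oligo(dT), amplified and fragmented with Nextera XT, which does not mark strand, and read as pairs of 25 bases. The groups share strain, age and tissue, and differ by injection and time. No uninjected group was analysed here. Not given in the sources used here are the dose, the sorting gate, the collection days and the number of mice behind a replicate. If the replicates are not separate mice, the p-values measure only the spread between these samples.

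Elastic fibres give skin, arteries, lungs and the sheaths around muscle fibres their recoil. Tropoelastin, the soluble product of Eln, is deposited on a scaffold of fibrillin microfibrils, with fibulins and other glycoproteins guiding its assembly, and lysyl oxidases then cross-link it into an insoluble polymer. The microfibrils also store latent TGF-beta, so the same structures carry mechanical load and a growth factor. The polymer turns over very slowly, and RNA levels do not measure it.

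The counts summed to 6373713 to 10011920 per library over 21138 to 25579 detected genes, with TMM scaling factors of 0.962 to 1.04. In 4 libraries more genes were detected than in any other (PBS 4 h replicate 4, PBS 8 h replicates 1 and 4, and CGRP 4 h replicate 3; 23294 to 25579 genes). In PBS 8 h replicates 1 to 3 the predicted gene Gm10800 took 1.77% to 2.45% of the counts, against 0.536% to 1.01% elsewhere. Calls of the 10 genes and of the related genes that were lost without either set of libraries are named where these genes are described. The 9 stromal markers summed to 140292 to 187635 CPM (counts scaled to the size of each library), most of it from Gsn, with group means of 96031 to 117355 CPM. The defining stromal receptor gene Pdgfra had group means of 508 to 726 CPM. Summed over their lists, macrophage markers reached 9.58 to 24.6 CPM, lymphocyte markers 0 to 1.97 CPM, endothelial markers 79.2 to 144 CPM and myofibre markers 82.8 to 227 CPM. Nearly all of the endothelial sum was Tek (group means of 90.6 to 119 CPM), the only 1 of the 8 endothelial markers to pass the filter. None of the others had a group mean above 1.26 CPM.

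Where RefSeq gave a promoter, the 250 bases before the start were searched on both strands for 5 motifs, because CGRP signals in many cells through cyclic AMP and the CRE-binding factor CREB. Of the 10 genes 6 matched (Fbn1, Fbln1, Fbln2, Fbln5, Efemp2 and Emilin1, with 10 start sites in all). The full CRE (TGACGTCA) was in 0 of the 10 windows, against 1.55% of 32851 windows of all genes. Its half-site (TGACG) was in 2 of the 10, both of Fbln5, against 17.8% of all windows. The AP-1 motif (TGANTCA) was in 0 of the 10 (6.75% of all), the TATA box (TATAAA) in 0 of the 10 (12.4% of all) and the GC box (GGGCGG) in 7 of the 10 (32.7% of all). A full CRE contains a half-site on each strand, and the other motifs do not contain each other. Fbln5, the gene of these 6 that was called lower after CGRP at both times in the tests given further on, is shown with its fibulin relatives Efemp2 and Fbln1, which did not pass the test at either time. For each of these 3 genes the window shown is the one that overlaps no exon in GENCODE. Capitals mark the GC boxes and the CRE half-site, in either orientation. The build is GRCm38.p6, the positions are chr12:101819120-101819369 (minus strand) for Fbln5, chr19:5473696-5473945 (plus strand) for Efemp2 and chr15:85205699-85205948 (plus strand) for Fbln1, and each runs 5′ to 3′ towards the gene.
Fbln5: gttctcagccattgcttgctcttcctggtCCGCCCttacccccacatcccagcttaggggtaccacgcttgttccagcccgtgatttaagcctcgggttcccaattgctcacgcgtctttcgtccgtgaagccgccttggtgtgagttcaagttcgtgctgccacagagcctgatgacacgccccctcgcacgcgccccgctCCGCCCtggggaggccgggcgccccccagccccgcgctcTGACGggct
Efemp2: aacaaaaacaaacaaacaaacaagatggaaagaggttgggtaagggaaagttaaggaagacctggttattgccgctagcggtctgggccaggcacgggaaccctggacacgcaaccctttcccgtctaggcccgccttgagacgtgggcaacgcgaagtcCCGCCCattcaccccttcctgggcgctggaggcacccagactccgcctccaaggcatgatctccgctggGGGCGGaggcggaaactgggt
Fbln1: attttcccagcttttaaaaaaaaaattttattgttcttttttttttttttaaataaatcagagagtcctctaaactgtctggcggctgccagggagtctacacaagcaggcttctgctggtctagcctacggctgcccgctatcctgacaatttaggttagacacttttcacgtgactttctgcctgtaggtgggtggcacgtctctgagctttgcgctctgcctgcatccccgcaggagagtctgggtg
The Fbln5 window holds 2 GC boxes and 1 half-site close to its downstream end, with 65.2% G and C. The Efemp2 window holds 2 GC boxes and no half-site (59.2% G and C). None of the 5 motifs was found in the Fbln1 window (46.4% G and C), and the median over all windows was 52.4%. The windows not shown differ: the other Fbln1 window, which overlaps this one, holds 1 GC box (62.4% G and C), and the other 2 of Efemp2, which overlap each other, hold 5 each. The only window of Emilin1, the other gene of these 6 that was called lower at 4 h, holds none of the 5 motifs (63.2% G and C). A match describes letters only and shows no binding.

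Together the 10 genes took 0.958% ± 0.0604 (SD, n = 4) of the counts after PBS at 4 h and 0.919% ± 0.0872 after CGRP. At 8 h the shares were 0.960% ± 0.0269 after PBS and 0.987% ± 0.0311 after CGRP. Fbln2, Mfap5 and Fbn1 gave 75.7% to 85.4% of those counts in every library. Levels can be compared between genes only per length, here as CPM per kb of exon (the union of all exons of a gene in GENCODE). On that scale, over all 16 libraries, Mfap5 (573 ± 66.6, SD, n = 16) and Fbln2 (555 ± 66.5) stood at the top with overlapping ranges. Then came Fbn1 (165 ± 26.3), Fbln1 (155 ± 24.4) and Mfap4 (144 ± 47.2), whose ranges overlapped, Fbln5 (74.0 ± 13.4), Efemp2 (61.6 ± 7.80), Emilin1 (34.3 ± 8.42), Eln (16.4 ± 4.56) and Fbn2 (0.0691 ± 0.0590). Among neighbours in this order the ranges over the 16 libraries were separate only between Fbln2 and Fbn1 and between Eln and Fbn2. Within the PBS 4 h group the ranges of Mfap4 and Fbln5, of Efemp2 and Emilin1, and of Emilin1 and Eln were separate too. The mean level per length of every gene but Fbn2 was above that of Eln. With the length of the longest coding transcript instead, Mfap5 (1365) and Fbln2 (739) no longer overlapped, and Fbln1 (185) and Fbn1 (167) changed places, as did Efemp2 (88.6) and Fbln5 (87.8). Eln (34.5) kept its place between Emilin1 (43.9) and Fbn2 (0.0827).

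**Figure D1:**
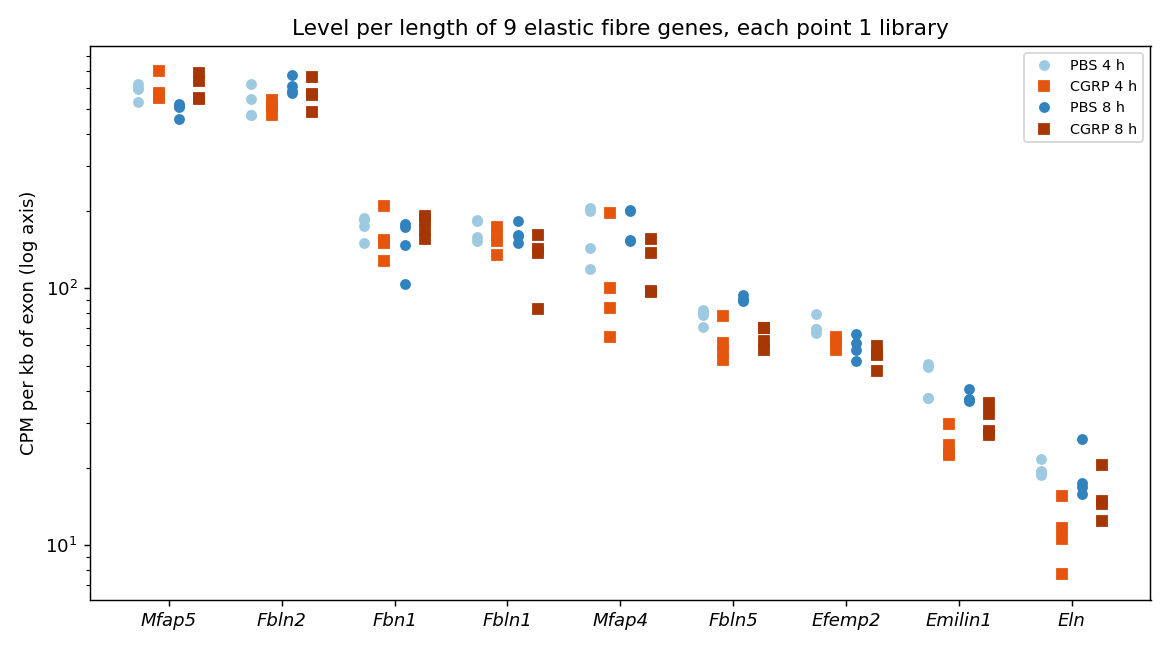
Level per length, as CPM per kb of exon on a log axis, of the 10 genes without Fbn2, whose level was near 0. Each point is 1 library, coloured by group; Mfap5 and Fbln2 lie above all other genes shown, and Eln is lowest with a mean of 16.4.

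At 4 h, 3 of the 10 genes fell after CGRP and none rose: Eln (elastin) to 0.574 of its PBS level, Emilin1 to 0.569 and Fbln5 to 0.797. Of all 13949 genes tested, 8.37% fell, 7.84% rose and 16.2% changed in either direction at that time. The median log2 fold change of the 10 genes was -0.28, with 9 of 10 below 0, against 0.00 over all genes tested, with 7005 of 13949 below 0. The abundant scaffold genes Fbn1, Fbln1, Fbln2 and Mfap5 had values of -0.13 to 0.02 at 4 h, none of which passed the test. Mfap4, whose level per length overlapped that of Fbln1, was at -0.59 and did not pass it either. At 8 h, 1 of the 10 genes fell, Fbln5 (fold 0.713), and none rose, where 3.67% of all genes fell, 5.00% rose and 8.67% changed in either direction. The split of calls over all genes into rises and falls depended on scaling. Falls were 1168 of 2262 calls at 4 h, and 1381 of 2294 with upper-quartile scaling. At 8 h they were 512 of 1210, and 649 of 1180 with upper-quartile scaling. The median of the 10 genes at 8 h was -0.29, with 8 of 10 below 0, against -0.02 over all genes, with 7304 of 13949 below 0. The groups of the same time did not overlap, with CGRP lower, for 3 of the 10 genes at 4 h (Eln, Emilin1 and Efemp2; 9.90% of all genes) and for 2 at 8 h (Fbln5 and Emilin1; 6.75% of all genes). Calls are at an adjusted p under 0.05 in edgeR's quasi-likelihood test with Benjamini-Hochberg adjustment over all genes tested, and every adjusted p below comes from it unless another tool is named. Before that adjustment, 4029 of all 13949 genes had a p under 0.05 at 4 h and 3158 at 8 h. In bulk samples, fewer cells of a type and less RNA per cell cannot be told apart. The comparisons at 4 h and at 8 h share no library.

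**Figure D2:**
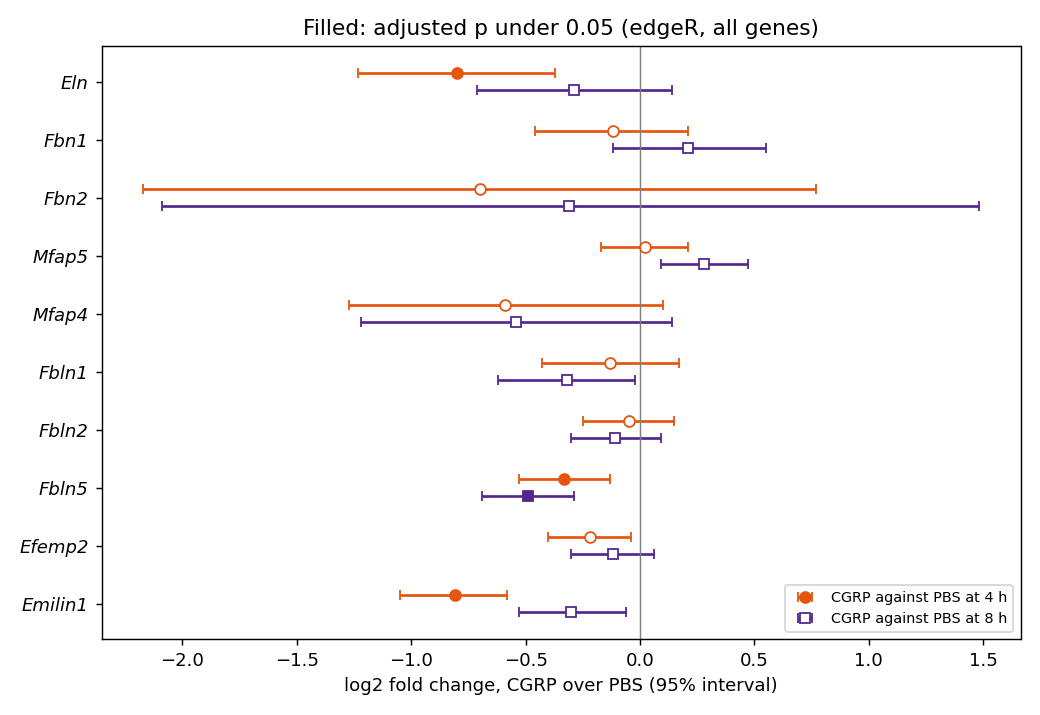
Log2 fold change of CGRP over PBS for each of the 10 genes at 4 h (circles) and 8 h (squares), with the 95% interval of the edgeR fit; filled symbols have an adjusted p under 0.05. The intervals of Eln (-1.23 to -0.37) and Emilin1 (-1.05 to -0.58) at 4 h and of Fbln5 at both times lie below 0 and are called, and that of Mfap5 at 8 h (0.09 to 0.47) lies above 0 and is not called.

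Eln (mm10 chr5:134702593-134747323, minus strand) encodes tropoelastin, the elastic core. After PBS at 4 h its level in the 4 libraries was 152, 175, 158 and 156 CPM, and after CGRP 62.3, 126, 85.6 and 94.6 CPM. Every CGRP library was below every PBS library at 4 h, with CGRP replicate 2 the nearest. The log2 fold change was -0.80 ± 0.20 (SE; adjusted p = 0.0138). After 8 h the PBS libraries held 142, 209, 128 and 136 CPM and the CGRP libraries 120, 117, 166 and 101 CPM. These groups overlapped, since CGRP replicate 3 was above 3 of the PBS libraries. The 8 h value was -0.29 ± 0.20 with a 95% interval of -0.71 to 0.14 (adjusted p = 0.445), and without PBS 8 h replicate 2, the library at 209 CPM, it was -0.10. Without the 4 libraries that had the most genes detected, the 4 h value was -0.78 with an adjusted p of 0.0850, and over the 16 alternatives the adjusted p ranged from 3.90e-04 to 0.0850. The 8 h effect less the 4 h effect was 0.52 ± 0.28 (adjusted p = 0.443), so a difference between the times was not shown.

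Emilin1 (chr5:30913402-30921277, plus strand) encodes a glycoprotein found where elastin meets microfibrils, also known as an integrin ligand and a restraint on pro-TGF-beta processing. Its PBS libraries at 4 h held 243, 251, 184 and 185 CPM, and its CGRP libraries 113, 146, 121 and 111 CPM. Replicates 3 and 4 of PBS were lower than the other PBS libraries, and still above all CGRP libraries. The change was -0.81 ± 0.12 (adjusted p = 4.95e-05), and it was called under all 16 alternatives, at -0.90 to -0.73. Its levels at 8 h were 182, 201, 183 and 179 CPM after PBS and 133, 160, 176 and 138 CPM after CGRP. The groups were separate again, by a small margin, at -0.30 ± 0.11 (95% interval -0.53 to -0.06; adjusted p = 0.116). The 8 h effect minus the 4 h effect was 0.52 ± 0.16 (95% interval 0.18 to 0.85), with an unadjusted p of 0.00402 and an adjusted p of 0.117. None of the 10 genes was called in this comparison of effects, where 1.12% of all genes were. An unadjusted p under 0.05 was found for 1 of the 10 and for 1996 of all 13949 genes. DESeq2 called 0 of the 10, and a fit without the filter on low counts called Emilin1 (0.53, adjusted p = 0.0239). Over the 24 alternatives of this value the adjusted p ranged from 0.0239 to 0.373.

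Among the fibrillins, Fbn1 (chr2:125300594-125507993, minus strand) forms the microfibril backbone, and mutations in its human counterpart cause Marfan syndrome. Its levels at 4 h were 2242, 2122, 2271 and 1827 CPM after PBS and 1816, 2539, 1871 and 1547 CPM after CGRP. At 8 h they were 2151, 2108, 1787 and 1258 CPM after PBS and 1878, 2041, 2229 and 2319 CPM after CGRP. The groups overlapped at both times, and the lowest level was that of PBS 8 h replicate 4, a library with many genes detected. Set against that library alone, without PBS 8 h replicates 1 to 3, the 8 h value was 0.76 (adjusted p = 0.0929). The 4 h value was -0.12 ± 0.16 (95% interval -0.46 to 0.21; adjusted p = 0.674) and the 8 h value 0.21 ± 0.16 (-0.12 to 0.55; adjusted p = 0.473). Fbn2 (chromosome 18), a fibrillin used mainly in embryonic tissue, was close to absent. Its counts were 0 to 24 per library and summed to 55, 32, 16 and 16 in PBS 4 h, CGRP 4 h, PBS 8 h and CGRP 8 h. At this depth a change could not be resolved: the 95% interval was -2.17 to 0.77 at 4 h (adjusted p = 0.572) and -2.09 to 1.48 at 8 h (adjusted p = 0.887).

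Mfap5 (chr6:122505845-122529290, plus strand), also called MAGP-2, encodes a small glycoprotein that binds fibrillin. At 4 h it stood at 1909, 2162, 2247 and 2132 CPM after PBS and 2018, 2513, 1973 and 2065 CPM after CGRP, overlapping throughout. At 8 h it stood at 1841, 1872, 1815 and 1642 CPM after PBS and 2476, 1950, 1978 and 2306 CPM after CGRP. All CGRP libraries were above all PBS libraries at 8 h, which no other of the 10 genes showed, and 8.08% of all genes did. The 8 h value was 0.28 ± 0.09 (95% interval 0.09 to 0.47) with an adjusted p of 0.0545, and the 4 h value 0.02 ± 0.09 (adjusted p = 0.918). The call at 8 h depended on the setting: DESeq2 gave 0.29 with an adjusted p of 0.0405, and leaving out CGRP 8 h replicate 2 or 3 gave 0.34 with an adjusted p of 0.0333 or 0.0285. Over the 17 alternatives the adjusted p ranged from 0.00568 to 0.330, and 4 of them called the gene. Mfap4 (chr11:61485431-61488900, plus strand) encodes a fibrinogen-related protein that binds tropoelastin and fibrillin. Its levels at 4 h were 384, 395, 229 and 275 CPM after PBS and 124, 378, 161 and 192 CPM after CGRP. Of the CGRP libraries, replicate 2 lay near the highest PBS libraries and the other 3 lay below all PBS libraries. The value was -0.59 ± 0.32 (95% interval -1.27 to 0.10; adjusted p = 0.248). Without CGRP 4 h replicate 2 it was -1.0 (adjusted p = 0.0122), the only one of 16 alternatives to call it, with adjusted p-values up to 0.497 in the others. Its PBS libraries at 8 h held 384, 389, 295 and 294 CPM and the CGRP libraries 186, 264, 299 and 187 CPM, with an overlap by 1 CGRP library (-0.54 ± 0.31; adjusted p = 0.349).

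Fbln5 (chr12:101746565-101819055, minus strand) encodes a fibulin that binds tropoelastin and integrins and is needed for normal elastic fibres in mice. After PBS at 4 h it held 488, 568, 544 and 556 CPM and after CGRP 364, 537, 393 and 424 CPM. CGRP replicate 2 lay among the PBS libraries and the other 3 lay below them. The change was -0.33 ± 0.10 (adjusted p = 0.0230). This call was fragile. It was lost when any of PBS 4 h replicates 2, 3 and 4 or CGRP 4 h replicates 1, 3 and 4 was left out (-0.31 to -0.24, adjusted p of 0.0580 to 0.114). Without the 4 libraries with the most genes detected it was lost too (-0.27, adjusted p = 0.174). The call held under 8 of 16 alternatives, and over all 16 the adjusted p ranged from 0.00145 to 0.174. At 8 h the PBS libraries held 624, 616, 628 and 651 CPM, a narrow range, and the CGRP libraries 431, 483, 482 and 399 CPM. Every CGRP library was well below every PBS library. The change was -0.49 ± 0.10 (adjusted p = 0.00322), it was called whichever single library was left out, and the direction held in all 17 alternatives (-0.53 to -0.43). It was not called without the 4 libraries with the most genes detected (-0.46, adjusted p = 0.0775) or without PBS 8 h replicates 1 to 3 (-0.52, adjusted p = 0.134), and the lowest adjusted p over the alternatives was 2.50e-05. The 8 h effect minus the 4 h effect was -0.16 ± 0.14 (adjusted p = 0.651).

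Efemp2 (chr19:5473954-5482517, plus strand), or fibulin-4, brings lysyl oxidase to tropoelastin. Its 4 h levels were 262, 302, 254 and 264 CPM after PBS and 217, 237, 244 and 229 CPM after CGRP. The groups did not overlap, but the gap was small, at -0.22 ± 0.09 (95% interval -0.40 to -0.04; adjusted p = 0.0826). At 8 h it held 252, 231, 198 and 218 CPM after PBS and 209, 181, 210 and 225 CPM after CGRP, overlapping, at -0.12 ± 0.09 (adjusted p = 0.437). Fbln2 (chr6:91212455-91272540, plus strand), a large fibulin that binds fibrillin and tropoelastin, held 3001 to 3958 CPM after PBS and 3019 to 3445 CPM after CGRP at 4 h. Its values were -0.05 ± 0.10 at 4 h (95% interval -0.25 to 0.15; adjusted p = 0.779) and -0.11 ± 0.10 at 8 h (-0.30 to 0.09; adjusted p = 0.578). Fbln1 (chr15:85205949-85286535, plus strand), a fibulin that binds elastin and fibronectin, held 694, 802, 668 and 796 CPM after PBS and 757, 703, 586 and 665 CPM after CGRP at 4 h, at -0.13 ± 0.14 (adjusted p = 0.622). At 8 h it held 696, 704, 658 and 798 CPM after PBS and 597, 621, 702 and 363 CPM after CGRP. The library at 363 CPM, CGRP replicate 4, lay far below the others, and the value was -0.32 ± 0.14 (95% interval -0.62 to -0.02; adjusted p = 0.184), or -0.15 without that library (adjusted p = 0.434). An adjusted p above the threshold does not show that the levels of these genes were equal after CGRP and PBS.

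**Figure D3:**
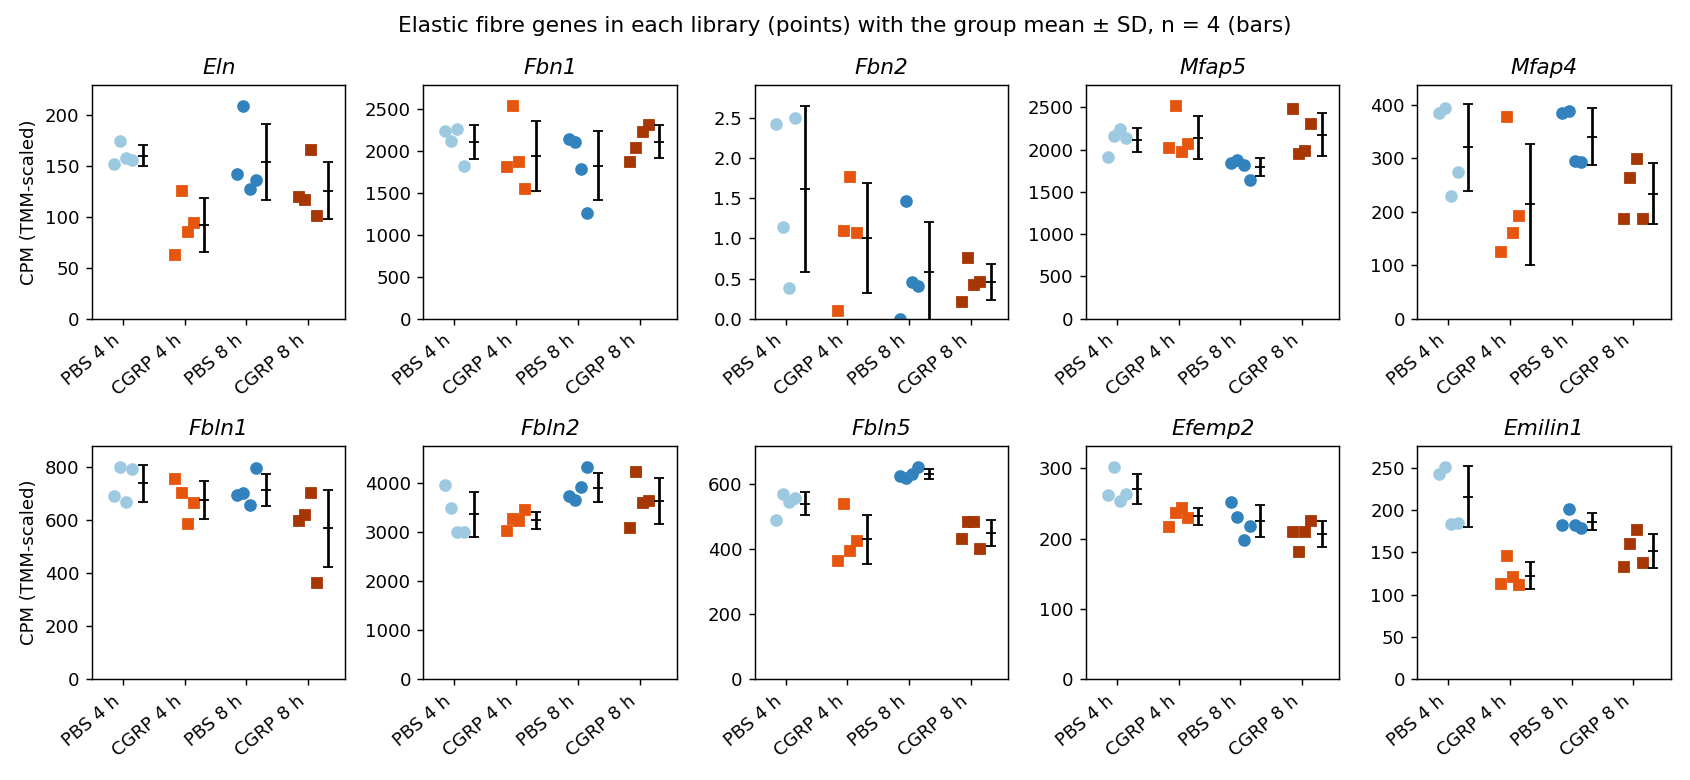
CPM of each of the 10 genes in each library (points, axes starting at 0) beside the group mean with its SD (n = 4). The CGRP 4 h libraries of Eln and Emilin1 and the CGRP 8 h libraries of Fbln5 lie below all PBS libraries of the same time; the lower bar of Fbn2 after PBS at 8 h would pass 0 and ends at the axis.

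Counting without strand matters for 5 of the 10 genes, whose exons overlap those of a gene on the opposite strand. For Eln (Gm30003, 3.3% of its exon bases, 0 to 11 counts per library), Fbn1 (Gm9913, 20.1%, 1 to 7 counts) and Fbn2 (Gm26507, 0.976%, 0 to 1 counts) the partner was given almost no counts. The strand setting is not stated, so these low counts do not show how many reads fell in the shared bases. The level per length of Fbn1 is taken over all its exon bases, shared ones included. Efemp2 shares 4.57% of its exon bases with Mus81 (233 to 421 counts, against 1302 to 2906 for Efemp2) and Mfap4 shares 4.63% with Mapk7 (308 to 697 counts, against 1221 to 3799). Reads in the shared bases cannot be assigned between the partners.

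The 4 h and 8 h groups were compared within each injection. They share no library and their collection days are not given, so time cannot be told apart from day or batch. After PBS, none of the 10 genes was called at 8 h against 4 h, where 0.516% of all genes were. An unadjusted p under 0.05 was found for 4 of the 10 and for 1817 of all 13949 genes. DESeq2 also called none of the 10. Efemp2 (-0.27 ± 0.09, adjusted p = 0.162) and Mfap5 (-0.24 ± 0.09, adjusted p = 0.242) were lower and Fbln5 (0.22 ± 0.10, adjusted p = 0.318) was higher at 8 h in every library, without passing the test. Such separation of the groups was seen in 7.52% of all genes. After CGRP none of the 10 was called either, by edgeR or DESeq2, against 7.26% of all genes. An unadjusted p under 0.05 was found for 2 of the 10 and for 2783 of all 13949 genes. Emilin1 (0.31 ± 0.11, adjusted p = 0.118) and Eln (0.46 ± 0.20, 95% interval 0.03 to 0.89, adjusted p = 0.218) stood higher at 8 h than at 4 h, and both were called once CGRP 4 h replicate 2 was left out (Emilin1 0.40, adjusted p = 0.0409; Eln 0.65, adjusted p = 0.0476). Over the 16 alternatives their adjusted p-values reached 0.320 and 0.484.

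The levels of Eln were set against those of other genes over the 16 libraries, as Pearson's r of log2 CPM (prior count 0.5) among 9864 named genes that averaged 5 CPM or more. Unnamed gene models, and Fbn2 for its low level, were left out. The libraries share the 4 groups and their differences, so these values are a description. Emilin1 (r = 0.85, rank 44), Mfap4 (r = 0.84, rank 50) and Fbln5 (r = 0.77, rank 221) followed Eln most closely of the elastic fibre genes ranked. With the group means removed, r was 0.77 for Mfap4, 0.69 for Fbln5 and 0.60 for Emilin1. For Fbn1, Fbln1, Fbln2, Efemp2 and Mfap5 r was lower, at 0.28, 0.32, 0.25, 0.34 and -0.12. With the group means removed those values were 0.42, 0.31, -0.02, 0.30 and 0.28. CGRP 4 h replicate 2 had the highest Eln, Emilin1, Mfap4 and Fbln5 of its group, and also the highest Fbn1 and Mfap5. Of all genes ranked the most like Eln were Entpd2, a nucleotidase, (0.92), Hmgn3 (0.90), Wfdc1 (0.90), Gxylt2 (0.90) and the matrix protein gene Matn2 (0.89). Their 4 h log2 fold changes, part of what made them alike, were -0.43, -0.79, -1.03, -1.26 and -0.71. The genes most like Fbn1 were Pxdn (0.89), an extracellular peroxidase that cross-links collagen IV, Klhl13 (0.84), Tmem42 (0.82), Col5a3 (0.82) and Ppm1h (0.82), with Mfap5 at 0.53 (rank 246).

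**Figure D4:**
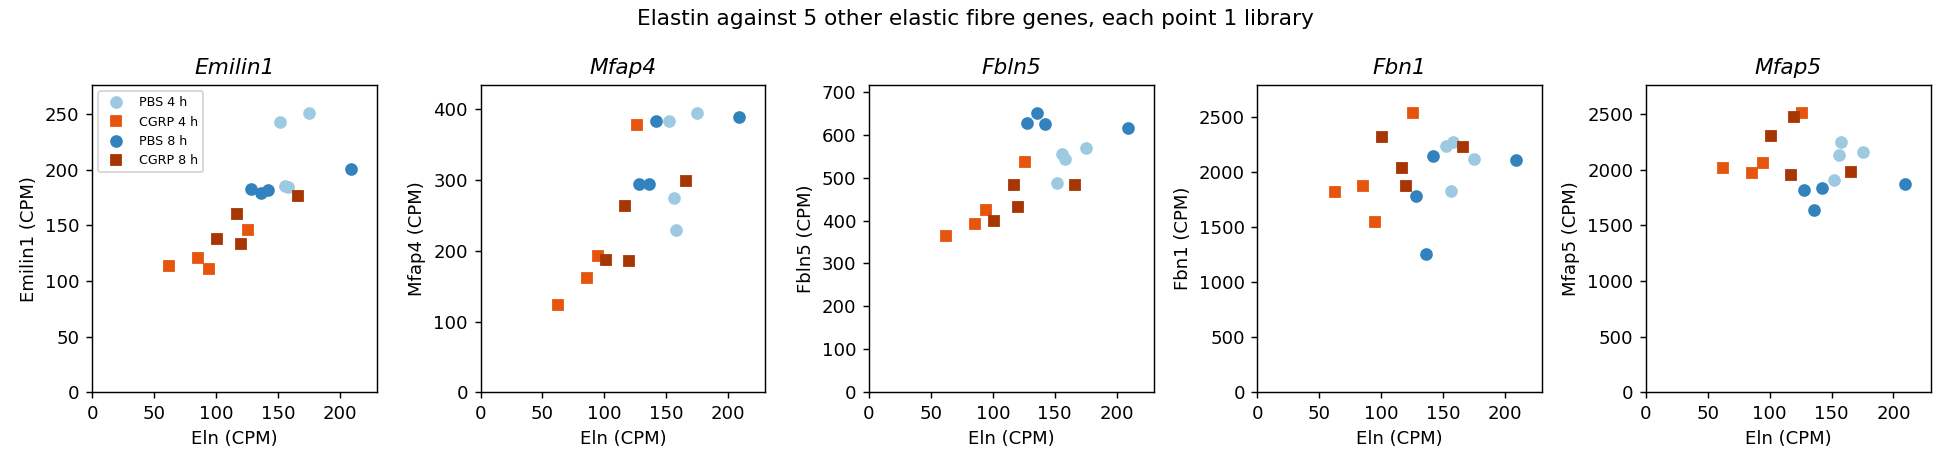
Eln (x axis, CPM) against Emilin1, Mfap4, Fbln5, Fbn1 and Mfap5 (y axes, CPM), each point 1 library, coloured by group. Emilin1, Mfap4 and Fbln5 increase with Eln across the 16 libraries, and Fbn1 and Mfap5 are spread with little relation to it.

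Of 76 further genes of elastic fibre assembly, signalling and turnover, 67 were tested. At 4 h 10 rose and 15 fell, with a median of -0.08, and at 8 h 8 rose and 8 fell, with a median of -0.05. The shares called were 37.3% at 4 h and 23.9% at 8 h, against 16.2% and 8.67% of all genes. The lists were chosen with earlier results known, so nothing is read from this. In all, 16 of the 25 calls at 4 h and 7 of the 16 at 8 h held whichever single library was left out. Those that did not are marked where they are named. Without the 4 libraries with the most genes detected, 16 of the 25 were still called at 4 h, and Ltbp3, Mfap2, Egfl6, Bgn, Dcn, Timp2, Itgb3, Lrrc32 and Thbs1 were not (adjusted p of 0.0544 to 0.422). At 8 h 6 of 16 were called without those libraries, and Lox, Adamts10, Dcn, Hspg2, Mmp14, Timp1, Timp2, Itga5, Itga9 and Lrrc32 were not (adjusted p of 0.0751 to 0.314). Without PBS 8 h replicates 1 to 3, which leaves 1 PBS library assumed to vary like the other groups, 6 of 16 were called. Then Lox, Hmcn1, Adamts10, Dcn, Hspg2, Tnxb, Timp1, Timp2, Itga5 and Lrrc32 were not (adjusted p of 0.154 to 0.775).

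Of the 7 cross-linking genes (lysyl oxidases and their helpers), 1 fell at 4 h and 1 rose at 8 h, with medians of -0.18 and 0.01. The gene that fell was Fkbp10 (-0.55 ± 0.10, adjusted p = 7.91e-04), a foldase of collagen and tropoelastin in the endoplasmic reticulum, from 384 ± 14.4 to 263 ± 49.1 CPM (SD, n = 4). Lox, the lysyl oxidase that Efemp2 brings to elastin, stood at 62.2 ± 25.8 CPM after PBS and 135 ± 22.4 CPM after CGRP at 8 h. Its 8 h libraries held 52.8, 100, 41.8 and 54.0 CPM after PBS and 130, 135, 110 and 164 CPM after CGRP, with no overlap. The rise was 1.11 ± 0.30 (adjusted p = 0.0353), and the call was lost without any of PBS 8 h replicates 1, 3 and 4 or CGRP 8 h replicates 1, 2 and 4 (0.98 to 1.13, adjusted p up to 0.0994). It was 0.93 without the 4 libraries (adjusted p = 0.314) and 1.33 without the 3 PBS libraries (adjusted p = 0.200). At 4 h Lox was at 0.44 ± 0.29 (adjusted p = 0.361). Loxl1, the lysyl oxidase tied most closely to elastin upkeep, was not called at 4 h (-0.24 ± 0.10, adjusted p = 0.103) or 8 h (0.18 ± 0.10, adjusted p = 0.280). Without PBS 8 h replicate 2 the 8 h value was 0.31, with an adjusted p of 0.0419.

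Of the 4 latent TGF-beta binding protein genes, 1 fell at 4 h and none was called at 8 h, where 1 had an unadjusted p under 0.05 and DESeq2 called 0. Ltbp3 fell by 0.35 ± 0.11 on the log2 scale (adjusted p = 0.0391), a call lost without any of 5 of the 8 libraries (PBS replicates 1 and 2 and CGRP replicates 1, 3 and 4; adjusted p of 0.0765 to 0.143). Ltbp4, which Fbln5 needs for its deposition on microfibrils, was at 0.10 ± 0.12 at 4 h (adjusted p = 0.639) and -0.31 ± 0.12 at 8 h (adjusted p = 0.106). Its larger contrast was between the 4 h and 8 h groups, whose collection days are not given. Ltbp4 rose from 1280 ± 203 to 2455 ± 339 CPM between 4 h and 8 h after PBS (0.94 ± 0.12, adjusted p = 5.48e-04) and from 1371 ± 74.3 to 1979 ± 311 CPM after CGRP (0.53 ± 0.12, adjusted p = 0.00679).

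Among 11 tested relatives of the fibulins, EMILINs and microfibril proteins, 3 fell at 4 h and 1 at 8 h, and none rose. DESeq2 called 4 at 4 h and 2 at 8 h. Its further calls were Fbln7 at 4 h (364 ± 16.5 CPM after PBS, 234 ± 68.6 after CGRP) and Mfap2 at 8 h (142 ± 24.7 and 94.9 ± 12.2 CPM). Hmcn1, a giant fibulin, fell at both times (-0.93 ± 0.20, adjusted p = 0.00262, and -0.82 ± 0.19, adjusted p = 0.0105), the second not called without PBS 8 h replicates 1 to 3 (-0.93, adjusted p = 0.179). Its levels at 8 h were 53.6 to 63.7 CPM after PBS and 26.7 to 42.7 CPM after CGRP. Mfap2, the closest relative of Mfap5 and a fibrillin-binding protein, fell at 4 h from 158 ± 19.0 to 87.1 ± 34.7 CPM (-0.86 ± 0.24, adjusted p = 0.0226), a call lost without PBS 4 h replicate 1 or 2 or CGRP 4 h replicate 4 (-0.85 to -0.78, adjusted p of 0.0521 to 0.0817). Mfap5 itself was at 0.02 in the same libraries. Egfl6, a secreted integrin ligand, fell as well (-2.84 ± 0.84, adjusted p = 0.0319), and lost its call without any of 6 of the 8 libraries (adjusted p up to 0.0928). Its level was low, at 6.82 ± 2.53 CPM after PBS and 0.957 ± 0.794 CPM after CGRP, with 31 counts summed over the CGRP 4 h group. Of 8 tested ADAMTS and ADAMTS-like genes, which act on fibrillin microfibrils, 2 rose and 3 fell at 4 h. Adamtsl1 (0.70 ± 0.11, adjusted p = 1.21e-04) and Adamts6 (1.53 ± 0.32, adjusted p = 0.00225) rose. Adamts10, which binds fibrillin-1 (-0.68 ± 0.11, adjusted p = 1.39e-04), and Adamtsl5 (-0.63 ± 0.11, adjusted p = 5.19e-04) fell, as did Adamtsl3 (-0.44 ± 0.11), which is named after its value was seen. At 8 h edgeR called 1 of the 8, Adamts10 (-0.43 ± 0.11, adjusted p = 0.0140), and DESeq2 called 2, Adamts6 and Adamts10. The edgeR call was lost without PBS 8 h replicate 4 or CGRP 8 h replicate 4 (adjusted p = 0.0641 to 0.0682).

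Proteoglycans and glycoproteins found on elastic fibres gave 1 rise and 2 falls at 4 h, and 1 rise and 3 falls at 8 h, of 8 genes. Vcan, the large proteoglycan versican, rose from 366 ± 65.5 to 549 ± 28.2 CPM at 4 h (0.58 ± 0.15, adjusted p = 0.0100). At 8 h it rose from 270 ± 61.0 to 491 ± 58.4 CPM (0.86 ± 0.15, adjusted p = 0.00162). Tnxb, a tenascin whose human counterpart is lost in a form of Ehlers-Danlos syndrome, fell at 8 h (-0.53 ± 0.09, adjusted p = 7.44e-04), and was not called without PBS 8 h replicates 1 to 3 (-0.43, adjusted p = 0.163). The small proteoglycans Dcn (-0.28 at 4 h, -0.26 at 8 h) and Bgn (-0.46 at 4 h) and the basement membrane proteoglycan Hspg2 (-0.36 at 8 h) also fell, with adjusted p-values of 0.0160, 0.0387, 0.0487 and 0.0443. Each of these 4 calls was lost without at least 3 of the 8 libraries compared, that of Dcn at 8 h without any of the 8.

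Of 7 tested proteases that can degrade elastin or its scaffold none was called at 4 h, where 1 had an unadjusted p under 0.05 and DESeq2 called 1 (Ctsk, the cathepsin K gene). At 8 h the membrane protease gene Mmp14 rose (0.49 ± 0.13, adjusted p = 0.0186), a call lost without PBS 8 h replicate 3 or 4 (adjusted p = 0.0686 at most). Of 6 tested protease inhibitors, 1 rose and 2 fell at 4 h, and 2 rose and 2 fell at 8 h. At 4 h DESeq2 also called Timp1 (56.2 ± 15.7 CPM after PBS, 190 ± 119 CPM after CGRP). Timp1, an inhibitor of metalloproteinases, rose at 8 h (3.08 ± 0.66, adjusted p = 0.0141), with 118 to 576 CPM after CGRP against 24.2 to 63.3 CPM after PBS. It was not called without the 4 libraries (2.62, adjusted p = 0.238) or without PBS 8 h replicates 1 to 3 (3.89, adjusted p = 0.262). Serpine2 rose at both times (0.46 ± 0.08 and 0.87 ± 0.08), and Cst3, which encodes the cathepsin inhibitor cystatin C, fell at both (-0.65 ± 0.09 and -0.54 ± 0.09). Timp2 fell by 0.27 at 4 h and by 0.31 at 8 h (adjusted p = 0.0471 and 0.0356), each call lost without any of 7 of the 8 libraries.

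Among 9 genes for receptors of elastic fibres and their fragments, 3 rose and 2 fell at 4 h, and 2 rose and 1 fell at 8 h. The fibronectin receptor subunit Itga5 rose at both times (1.18 ± 0.25, adjusted p = 0.00549, and 1.04 ± 0.25, adjusted p = 0.0199), and at 8 h the call was lost without PBS or CGRP replicate 1 or 4 (adjusted p up to 0.0650), without the 4 libraries (0.95, adjusted p = 0.217) and without PBS 8 h replicates 1 to 3 (1.09, adjusted p = 0.350). Lgals3, the galectin-3 gene, listed here as an elastin-binding lectin, rose from 91.8 ± 11.5 to 171 ± 11.4 CPM at 4 h and from 46.9 ± 9.76 to 157 ± 10.7 CPM at 8 h (0.90 ± 0.11, adjusted p = 1.65e-05, and 1.74 ± 0.12, adjusted p = 6.42e-09). Itga8, an integrin subunit of contractile cells, fell at 4 h from 9.27 ± 2.16 to 2.89 ± 1.01 CPM (-1.67 ± 0.29, adjusted p = 4.28e-04). Glb1, whose splice form is an elastin-binding chaperone, fell at 4 h (-0.43 ± 0.11, adjusted p = 0.00686), and the table does not separate splice forms. Itgb3 rose at 4 h (0.41 ± 0.12, named after its value was seen), lost without PBS or CGRP 4 h replicate 4 (adjusted p = 0.0666 to 0.0755). Itga9 fell at 8 h (-0.59 ± 0.14, adjusted p = 0.00844), lost without PBS 8 h replicate 4 (-0.45, adjusted p = 0.0520).

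Of 7 TGF-beta ligands, receptors and activators, 3 rose and 1 fell at 4 h and 1 rose at 8 h, with medians of 0.89 and 0.04. DESeq2 also called Tgfb1 at 4 h (1.40 ± 0.730 CPM after PBS, 3.26 ± 1.28 after CGRP) and Thbs1 at 8 h (48.6 ± 16.8 and 150 ± 85.9 CPM). The receptor gene Tgfbr2 rose at 4 h (0.89 ± 0.13, adjusted p = 1.37e-04), as did Lrrc32, which tethers latent TGF-beta to the cell surface (0.99 ± 0.26, adjusted p = 0.0186), and Thbs1, an activator of latent TGF-beta (2.10 ± 0.55, adjusted p = 0.0219). The ligand gene Tgfb3 fell at 4 h from 139 ± 18.7 to 93.3 ± 10.6 CPM (-0.57 ± 0.11, adjusted p = 7.79e-04). Lrrc32 rose at 8 h too (0.92 ± 0.26, adjusted p = 0.0411). The Lrrc32 call at 4 h was lost without PBS 4 h replicate 1 or 2 (adjusted p up to 0.0576) and its 8 h call without any of 7 of the 8 libraries (up to 0.138). Thbs1 lost its call without PBS 4 h replicates 1, 2 or 4 or CGRP 4 h replicate 4, the library with the highest level (472 CPM; 1.56 to 2.14, adjusted p up to 0.0777).

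**Figure D5:**
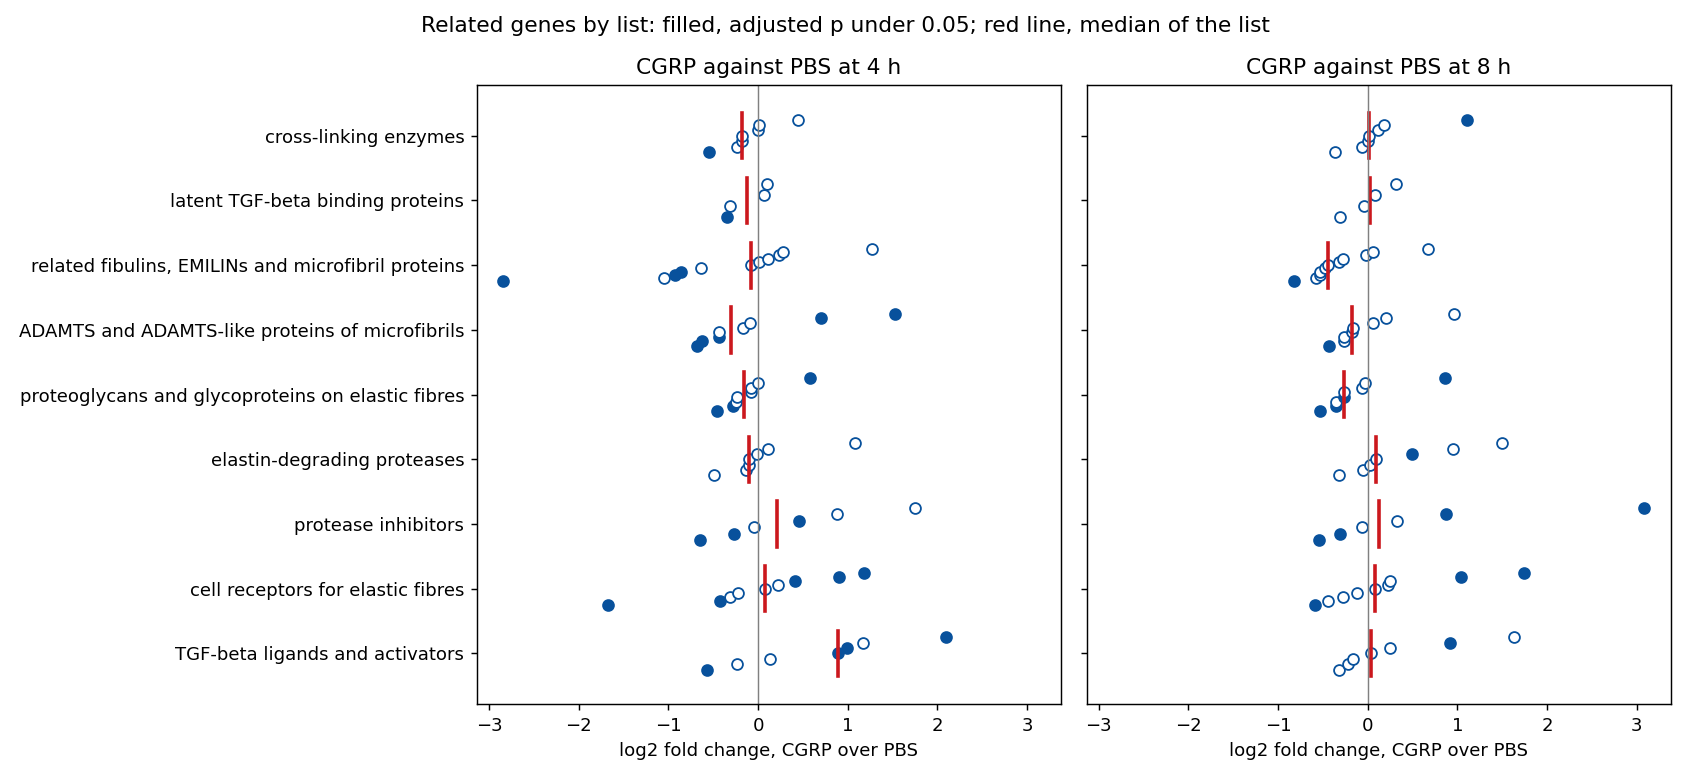
Log2 fold change of CGRP over PBS at 4 h (left) and 8 h (right) for the tested related genes, 1 point per gene, by list; filled points have an adjusted p under 0.05 and the red line is the median of the list. The relatives of fibulins, EMILINs and microfibril proteins have 3 falls at 4 h and 1 at 8 h and no rise, and protease inhibitors and receptors have calls in both directions at both times.

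Markers of other cells that make elastic matrix, and of fibroblast states, are given here beside the falls of Eln, Emilin1 and Fbln5. The summed level of 10 pericyte and smooth muscle markers was 135 to 184 CPM after PBS and 91.4 to 110 CPM after CGRP at 4 h, and 162 to 218 and 145 to 210 CPM at 8 h. Of the 7 tested, 2 were called at 4 h, where 16.2% of all genes were: Cspg4 (-1.20 ± 0.20, adjusted p = 6.63e-04) and Myh11 (-2.60 ± 0.68, adjusted p = 0.0111) fell. Myh11 was near the floor, with group means of 2.28 CPM after PBS and 0.373 CPM after CGRP. The median of the list was -0.63, with 6 of 7 below 0. Among the uncalled, Abcc9, Acta2, Notch3 and Des were at -0.91, -0.63, -0.59 and -0.12, and Kcnj8 was at 0.42. At 8 h edgeR called none, with 2 at an unadjusted p under 0.05, and DESeq2 called 2 (Abcc9 and Notch3). No marker of the list was at 0 throughout a group. The summed level of 6 tendon cell markers was 681 to 1508 CPM after PBS and 284 to 832 CPM after CGRP at 4 h, overlapping, with 1 of 5 tested genes called, Comp (-1.08 ± 0.34, adjusted p = 0.0494), and 4 of 5 by DESeq2. All 5 tested tendon markers were below 0 at 4 h, with a median of -1.38 and 4 at an unadjusted p under 0.05. Fmod, Mkx and Tnmd, uncalled by edgeR, were at -2.54, -1.50 and -1.38. Thbs4, the largest part of the sum (612 CPM after PBS and 488 CPM after CGRP), was at -0.33. The 8 h sums were 612 to 1214 CPM after PBS and 822 to 1456 CPM after CGRP, with 0 called by edgeR and DESeq2, 0 at an unadjusted p under 0.05, and none of its markers at 0 throughout a group. The 9 stromal markers summed to 163780 to 187635 CPM after PBS and 146442 to 154037 CPM after CGRP at 4 h, and to 163634 to 176712 and 140292 to 159641 CPM at 8 h. Of them 2 rose and 4 fell at 4 h, Pdgfra among those that fell (-0.40 ± 0.07, adjusted p = 2.19e-04), and Gsn, the bulk of the sum, was not called (-0.19 ± 0.09, adjusted p = 0.144). Of 2 lists for fibroblast states, the 8 Col15a1 subset markers summed to 10320 to 11958 CPM after PBS and 7218 to 9880 CPM after CGRP at 4 h, and the 8 Pi16 subset markers to 3160 to 3904 and 3410 to 4749 CPM. Of the Col15a1 subset markers 1 rose and 3 fell at 4 h: Cxcl14 rose from 805 to 1517 CPM, and Smoc2, the largest part of the sum, fell from 6034 to 4017 CPM. Gdf10 (-1.06) and Col15a1 (-0.37) fell too. Of the Pi16 subset markers 2 rose at 4 h. At 8 h the Col15a1 sums were 10206 to 11419 and 9456 to 10501 CPM. There 1 marker of that list rose, Cxcl14 (1.28), and 2 fell, Smoc2 (-0.42) and Gdf10 (-0.82), where 8.67% of all genes were called. Of the Pi16 subset markers 1 fell at 8 h, Dpp4 (-0.40). Of the 9 stromal markers 2 rose and 3 fell at 8 h, Pdgfra (-0.28) among those that fell. Myofibre markers summed to 140 to 227 CPM after PBS and 96.5 to 143 CPM after CGRP at 8 h, when Fbln5 fell, with 1 of 5 tested called, Acta1 (-0.78 ± 0.19, adjusted p = 0.0204). The part of these cells or states in the falls of Eln, Emilin1 and Fbln5 was not tested.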

How the data were processed

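The authors deposited raw counts of reads per gene. Per the submitters' processing notes, STAR 2.5.4, featureCounts and the build mm10 were used. The sources used here do not state the annotation, the strand setting or how multiply mapped reads were counted. All 16 libraries were used, and none was a copy of another of its group. After filterByExpr and TMM scaling, all libraries entered 1 quasi-likelihood fit of edgeR 4.0.16 (R 4.3.3) that estimated each group's mean and left 12 residual degrees of freedom. Tests were two-sided, with Benjamini-Hochberg adjustment over 13949 genes. Rose, fell and changed stand for genes called, which had an adjusted p below 0.05. No fold threshold was set. CPM are TMM-scaled, with SD; log2 fold changes have SE and 95% intervals. Positions and lengths are from GENCODE and promoter sequences from RefSeq (GRCm38.p6).

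The 10 genes, the related lists and the markers were chosen with earlier results of these data known. Named were the 10 genes, Lox, Loxl1 and Ltbp4, the 5 genes most like Eln and Fbn1, and up to 4 called genes per list and time with the smallest p. The fit was tested on simulated data. Alternatives were other scaling (RLE, upper quartile), no filter or a stricter one (at least 50 counts in 4 libraries), DESeq2 1.42.0, a replicate block, only the 2 groups compared, and each library left out. Leaving out the 4 libraries with the most genes detected, leaving out PBS 8 h replicates 1 to 3, and lengths by the longest coding transcript were chosen after seeing the data.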

Additional observations from a re-analysis of the deposited data

Results flagged for a closer look

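In 2 of 40 groups of 4 libraries (10 genes in 4 groups) 1 library lay far from the other 3, where chance gives about 1 in 20 groups. Eln was at 209 CPM in PBS 8 h replicate 2, with the others at 128 to 142 CPM. Mfap5 was at 2513 CPM in CGRP 4 h replicate 2, with the others at 1973 to 2065 CPM. Of the related genes, Lgals3 had an effect of CGRP at 8 h that exceeded the effect at 4 h by 0.85 ± 0.16 on the log2 scale (adjusted p = 0.00967, edgeR quasi-likelihood test over all genes), with all CGRP libraries above all PBS libraries at both times. Between 4 h and 8 h Lgals3 fell after PBS from 91.8 ± 11.5 to 46.9 ± 9.76 CPM (-0.97 ± 0.12, adjusted p = 4.44e-04), and after CGRP it was 171 ± 11.4 and 157 ± 10.7 CPM (-0.12 ± 0.11, adjusted p = 0.614). Without the 4 libraries with the most genes detected this difference was 0.66 (adjusted p = 0.123).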

How the results depend on the processing

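Emilin1 at 4 h was called under all 16 alternatives, Eln at 4 h under 15, Fbln5 at 8 h under 15 of 17 and Fbln5 at 4 h under 8 of 16. With no filter on low counts, 3 of the 10 genes were called at 8 h (Fbln1, -0.30, Fbln5 and Mfap5, 0.30) and 1 for the difference between the effects (Emilin1), and of the related genes 7 were called for the difference, 6 between the times after PBS and 15 between those after CGRP. DESeq2 called 2 of the 10 at 8 h (Fbln5 and Mfap5), and of the related genes 4 for the difference and 15 for time after CGRP. Without the 4 libraries with the most genes detected, 1 of the 10 was called at 4 h (Emilin1) and 0 at 8 h, and of the related genes 6 at 8 h and 0 for the difference. Without PBS 8 h replicates 1 to 3 the counts at 8 h were 0 of the 10 and 6 of the related genes. With single libraries left out, the 10 genes gave 2 to 4 calls at 4 h, 1 to 2 at 8 h and 0 to 2 for time after CGRP, and the related genes 8 to 16 at 8 h and 1 to 2 for the difference. Over all genes, the difference was called for 156 genes, 427 with DESeq2, 456 without a filter, 63 without the 4 libraries and 53 without the 3 PBS libraries, time after PBS for 72, 323, 422, 55 and 20, and CGRP at 8 h for 1210, 1549, 1356, 191 and 146. The fit without a filter tested 40070 genes. With upper-quartile scaling Efemp2 at 4 h was called (-0.26, adjusted p = 0.0463). The direction turned for uncalled values, which were near 0 except those of Fbn2 (-0.31 at 8 h and 0.39 for the difference). Mfap5 at 4 h was -0.02 with upper-quartile scaling. Without the 4 libraries, the differences between effects of Fbn2, Fbln2 and Mfap4 were -0.23, 0.05 and -0.01, Eln after PBS was 0.06 and Mfap5 after CGRP -0.01 over time. Without PBS 8 h replicates 1 to 3, Fbn2 at 8 h was 0.18, and over time after PBS Fbln1 was 0.10 and Mfap4 -0.13. With single libraries left out, the ranges that crossed 0 were Fbn2 -0.04 to 1.38, Mfap4 -0.15 to 0.47, Fbln2 -0.14 to 0.01 for the difference, Fbln5 -0.01 to 0.19, Mfap4 -0.06 to 0.56, Mfap5 -0.05 to 0.12 over time after CGRP, Mfap4 -0.04 to 0.20, Eln -0.24 to 0.02 over time after PBS, Mfap5 -0.06 to 0.07, Fbln2 -0.10 to 0.05 at 4 h, Fbn2 -0.73 to 0.69 at 8 h. The causes of these changes were not tested. Correlations of same-numbered deviations between groups were -0.03 to 0.09. In every comparison the same-numbered library was the closest match for some libraries and not for others. Whether the replicate numbers pair the libraries, as by a shared day, cannot be told from these values. With the replicate block, 3 of the 10 genes were called at 4 h and 1 at 8 h, as without it. Depth limits Fbn2 most, with 55 counts or fewer per group.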
